A study of Mus musculus with 6 samples.

Results

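The miR-181 family is a group of microRNAs (miRNAs) processed from 6 genes at 3 places in the mouse genome, and its levels were followed here in mouse embryonic stem cells (ESCs) kept in 3 media. Its members were chosen by name: 6 rows of the deposited count table, out of 1907 mature miRNAs, namely mmu-miR-181a-5p, mmu-miR-181a-1-3p, mmu-miR-181b-5p, mmu-miR-181c-5p, mmu-miR-181c-3p and mmu-miR-181d-5p, called by these names without the species prefix from here on. The endings 5p and 3p name the arm of the hairpin precursor from which the mature miRNA is cut. All 6 members passed the filter on low counts that left 571 miRNAs for testing, although miR-181a-1-3p passed it through its serum libraries alone.

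Small RNA had been sequenced from 2 ESC lines of C57BL/6 mice, RB18 and RB20, each in serum, 2i and R2i medium, which gave 6 libraries with 2 libraries per medium. Both lines were first derived in R2i with LIF, and their serum and 2i versions were made by moving cells to those media for at least 10 passages, so all 3 states of a line share the same origin. Serum medium contained 15% fetal bovine serum. The 2i and R2i media were serum free: both held 1 µM of the MEK inhibitor PD0325901, to which 2i added 3 µM of the GSK3 inhibitor CHIR99021 and R2i added 10 µM of SB431542, an inhibitor of the TGF-β type I receptor. LIF at 1000 U/ml was present in all 3 media, and 2i and R2i together are called the ground state. Since 3 cultures were pooled for a library, the difference between the libraries of a medium holds the line, the pool and the sequencing at once.

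A miRNA recognises its target messages mainly through its seed, the bases near its 5′ end, and miRNAs with the same seed are grouped as a family because they can bind the same sites. miR-181 is best known from lymphocyte development, where it tunes the sensitivity of T cell receptor signalling in the thymus. In ESCs, miR-181 and miR-125 miRNAs are known to repress Cbx7, a Polycomb subunit that holds differentiation genes silent.

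The mature sequences are shown because they define the family and because members at different places in the genome are nearly identical, which bears on every count below. They are RefSeq sequences on GRCm38.p6, written 5′ to 3′ with the seed (bases 2 to 8) in capitals.

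miR-181a-5p: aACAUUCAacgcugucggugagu
miR-181b-5p: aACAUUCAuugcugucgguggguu
miR-181c-5p: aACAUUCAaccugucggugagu
miR-181d-5p: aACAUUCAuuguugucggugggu
miR-181a-1-3p: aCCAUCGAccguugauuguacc
miR-181c-3p: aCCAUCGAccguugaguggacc
miR-181a-2-3p: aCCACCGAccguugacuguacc

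The 4 members of the 5p arm shared the seed ACAUUCA, and among the 1623 rows of the table that matched a RefSeq mature name they were the only 4 with it. Positions are counted from 1 at the 5′ end. Deleting base 11 of miR-181a-5p gives miR-181c-5p, so these 2 miRNAs differ by a single base outside the seed. miR-181b-5p and miR-181d-5p differ by C12U over the length they share, and miR-181b-5p is longer at its 3′ end. From miR-181a-5p to miR-181b-5p the changes are A9U, C10U and A21G. The 3p arms of Mir181a-1 and Mir181c also share a seed, CCAUCGA, and differ by U16G and U19G. The 3p arm of Mir181a-2, which is no member of the chosen set, carries U5C within the seed and U16C when compared with miR-181a-1-3p.

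The 3 loci lie on chromosomes 1, 2 and 8, each with a pair of miR-181 genes, and the annotation of GRCm38 places them as follows. Mir181c and Mir181d lie 85 bases apart on the minus strand of chromosome 8, with miR-181c-5p at chr8:84178924-84178945, miR-181c-3p at chr8:84178885-84178906 and miR-181d-5p at chr8:84178759-84178781. Both genes fall inside Nanos3, a protein-coding gene on the same strand that encodes a germ cell RNA-binding protein, and outside all of its annotated exons. Mir181a-1 and Mir181b-1 lie 97 bases apart on the plus strand of chromosome 1, with miR-181a-5p at chr1:137966468-137966490, miR-181a-1-3p at chr1:137966508-137966529 and miR-181b-5p at chr1:137966650-137966673. Mir181b-1 falls in an exon of the long noncoding RNA gene A430106G13Rik on the same strand, and Mir181a-1 overlaps an exon of that gene in part. Mir181a-2 and Mir181b-2 lie 1019 bases apart on the plus strand of chromosome 2, within Nr6a1 on the opposite strand and outside its exons, with miR-181a-5p at chr2:38852741-38852763 and miR-181b-5p at chr2:38853845-38853868. Mir181b-2 also lies within an exon of Gm44144, an unclassified transcript on the opposite strand. The rows miR-181a-5p and miR-181b-5p thus each count reads of 2 genes that cannot be told apart, whereas the rows of chromosome 8 and miR-181a-1-3p each have 1 gene.

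How the counting treated reads that match more than 1 place is not given in the sources used here. The split between miR-181a-5p and miR-181c-5p, and between miR-181b-5p and miR-181d-5p, is uncertain to that extent. Full-length reads of miR-181a-5p and of miR-181b-5p each match 2 genes, so the levels of these rows are uncertain as well. miR-181c-5p and miR-181d-5p have 1 gene each. The counts of the near-identical pairs were not in a fixed proportion. miR-181a-5p counts amounted to between 0.861% (2i, RB20) and 7.39% (R2i, RB18) of those of miR-181c-5p, and miR-181b-5p counts to between 0.893% and 11.4% of those of miR-181d-5p in the same libraries.

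Total counts ranged from 1041858 to 3593356 per library, and 3 counts, taken as the smallest level told from none, corresponded to between 0.835 and 2.88 counts per 1000000 (CPM). Members of the miR-290 to miR-295 and miR-302 to miR-367 groups, which mark ESCs, summed to between 375497 and 428821 TMM CPM (CPM after TMM scaling) in all 6 libraries. Of their 28 rows 22 were tested, and 4 were called higher in the ground state than in serum. Of all tested miRNAs, 37.0% were called in that comparison in either direction. Muscle markers (miR-1a-3p, miR-133a-3p and miR-206-3p) summed to between 46.6 and 79.4 TMM CPM in serum, to at most 0.486 TMM CPM in 2i and to between 4.005 and 7.72 TMM CPM in R2i, with miR-206-3p at 0 in 5 libraries and miR-1a-3p at 0 in both 2i libraries. They move in the direction of the miR-181 members, and their part in the values below was not tested. Blood and endothelial markers spanned overlapping ranges, between 814.5 and 1079 TMM CPM in serum and between 579.2 and 981.3 TMM CPM in the other 4 libraries, and the blood marker miR-223-3p had 0 counts in every library. Neural markers summed to between 548.8 and 752.9 TMM CPM in serum and to between 430.2 and 519.0 TMM CPM in the ground-state libraries, and mesenchymal markers to between 1420 and 1968 TMM CPM against between 2289 and 3554 TMM CPM, with miR-214-3p at 0 in 3 libraries.

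The miR-181 members together took 1.42% (95% Wilson interval 1.40 to 1.43) and 2.22% (2.20 to 2.24) of all counts in the serum libraries of RB18 and RB20. The shares were 0.962% (0.949 to 0.976) and 1.07% (1.06 to 1.08) in 2i, and 0.389% (0.378 to 0.401) and 0.428% (0.422 to 0.435) in R2i. The family's share was thus highest in serum and lowest in R2i in both lines. The intervals cover counting error only.

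miR-181c-5p made up most of these counts. Its levels in TMM CPM were 10700.1 and 19210 in serum, 8034 and 9469 under 2i and 2729 and 3450 under R2i, RB18 first in each pair. The libraries of the 3 media did not overlap, and by rank miR-181c-5p stood between place 14 and place 21 among all miRNAs in serum and 2i, and at places 40 and 34 in R2i. miR-181d-5p, cut from the neighbouring hairpin, followed with 2118 and 4225 TMM CPM in serum, 1193 and 1300 under 2i and 435.8 and 591.8 under R2i. Its media were in the same order without overlap. miR-181c-3p, the other arm of Mir181c, measured 316.0 and 723.3 TMM CPM in serum, 195.8 and 165.2 under 2i and 60.9 and 90.4 under R2i, again in that order and without overlap.

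The members from chromosomes 1 and 2 had fewer counts than miR-181c-5p and miR-181d-5p and took another order. miR-181a-5p, the form studied most in T cells, measured 319.2 and 418.4 TMM CPM in serum, 166.7 and 81.5 under 2i and 201.6 and 232.3 under R2i. miR-181b-5p measured 59.1 and 85.8 TMM CPM in serum, 33.5 and 11.6 under 2i and 49.8 and 36.3 under R2i. For both miRNAs serum was highest and 2i lowest, with R2i in between and no overlap between the libraries of any of the media, although the gap between 33.5 and 36.3 for miR-181b-5p was small. miR-181a-1-3p, the 3p arm of Mir181a-1, was close to the limit of detection, with 9 and 26 counts for the serum libraries, 2 and 4 for 2i and 3 and 7 for R2i. Its serum libraries lay above the other 4, and its counts in 2i and R2i were too few to be set in order.

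Averaged over the 6 libraries, the levels ran from miR-181c-5p (8932 TMM CPM) and miR-181d-5p (1644) to miR-181c-3p (258.6), miR-181a-5p (236.6), miR-181b-5p (46.0) and miR-181a-1-3p (4.10). Mature lengths were 22 to 24 bases, so no scaling by length was applied. The neighbours miR-181c-3p and miR-181a-5p could not be ordered: miR-181c-3p was the higher in serum RB20 and in both 2i libraries, and miR-181a-5p was the higher in serum RB18 and in both R2i libraries. The widest spans from the lowest to the highest library were 13.3-fold for miR-181a-1-3p and 11.9-fold for miR-181c-3p, and the narrowest was 5.13-fold for miR-181a-5p.

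**Figure D1:**
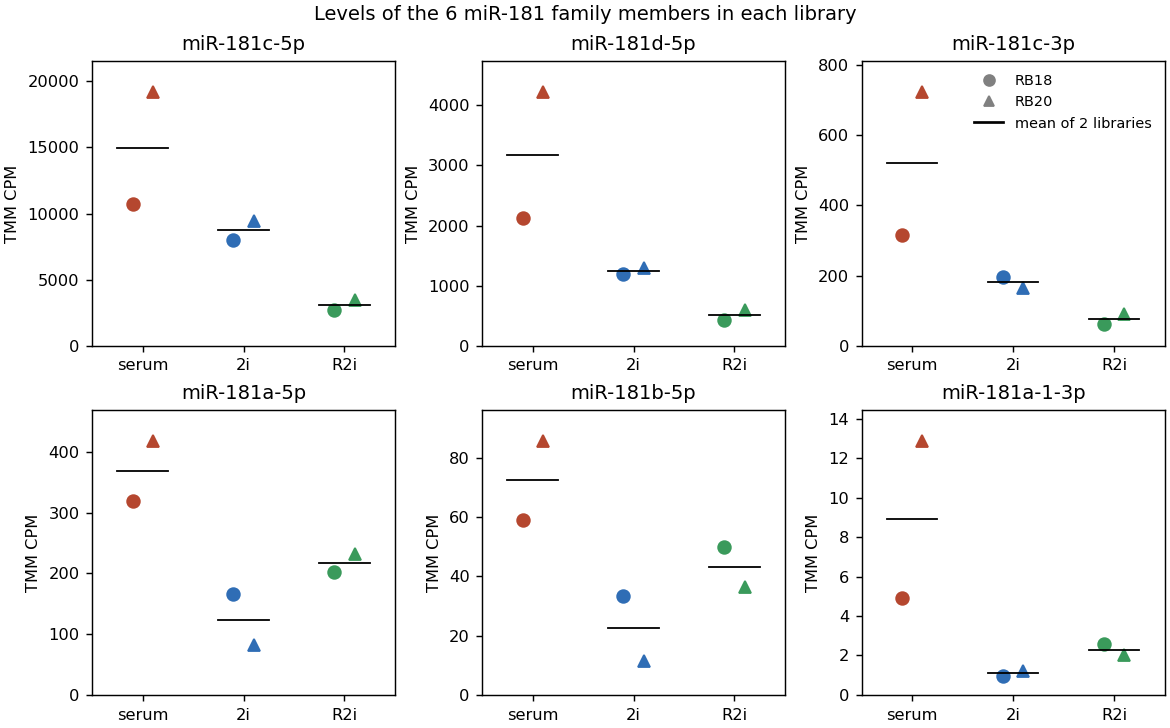
Levels of the 6 members in each library. Each panel plots TMM CPM on a linear axis from 0 for serum, 2i and R2i, with circles for RB18, triangles for RB20 and a bar for the mean of the 2 libraries. The upper row, from chromosome 8, steps down from serum to 2i to R2i, for example from a mean of 14955 to 8752 to 3090 for miR-181c-5p. In the lower row, from chromosomes 1 and 2, 2i is lowest for miR-181a-5p (a mean of 124.1 against 216.9 in R2i) and miR-181b-5p, and the counts of miR-181a-1-3p in 2i and R2i are too few to be set in order.

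Against serum, the clearest differences were those of the chromosome 8 members in R2i. All 3 were lower in R2i, with log2 fold changes of -2.62 ± 0.37 for miR-181d-5p (± SE, edgeR's quasi-likelihood test, Benjamini-Hochberg adjusted p = 0.000813), -2.27 ± 0.33 for miR-181c-5p (adjusted p = 0.000899) and -2.77 ± 0.43 for miR-181c-3p (adjusted p = 0.00131). In TMM CPM, with SDs over n = 2 libraries, this was a mean of 3090 ± 510.3 against 14955 ± 6018 for miR-181c-5p and of 513.8 ± 110.4 against 3172 ± 1490 for miR-181d-5p. The 3 miRNAs were the only members called, at an adjusted p under 0.01 over all 571 tested miRNAs and more than 2-fold, where 30.6% of all tested miRNAs were called and 15.6% were called lower in R2i than in serum. All 3 were also called under each of the 13 other settings tried, with adjusted p of at most 0.00926. Without the serum library of RB20, the highest for every member, the difference of miR-181c-3p was -2.10.

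The members from chromosomes 1 and 2 did not pass the test in R2i. miR-181a-5p differed by -0.76 (95% interval -1.60 to 0.07, edgeR adjusted p = 0.126) and miR-181b-5p by -0.78 (-1.84 to 0.29, adjusted p = 0.217). miR-181a-1-3p differed by -2.02 ± 0.67 with an edgeR adjusted p of 0.0448. Its summed counts, 35 in serum and 10 in R2i, corresponded to a ratio of 4.25 with an exact counting interval of 2.06 to 9.61. Although only 3 members were called, the R2i libraries lay below the serum libraries also for miR-181a-5p and miR-181b-5p, where 38.2% of tested miRNAs showed such a separation. Without miR-181a-1-3p, the log2 fold changes of the members had a median of -2.27, against -0.07 over all tested miRNAs.

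In 2i, miR-181a-5p was the only member called, with a log2 fold change against serum of -1.58 ± 0.37 (edgeR, adjusted p = 0.00854), where 34.2% of all tested miRNAs were called and 17.3% were called lower. Its mean level was 124.1 ± 60.2 TMM CPM in 2i and 368.8 ± 70.1 in serum (SD, n = 2 each). This call lay close to the limit: with the cell line as a term in the model its adjusted p was 0.0209 and no member was called in 2i. Leaving out serum RB18 raised it to 0.0185, serum RB20 to 0.0307, 2i RB20 to 0.0604, R2i RB18 to 0.0134 and R2i RB20 to 0.0167, so it held only without 2i RB18 (0.00111). The number of called members was 4 without serum RB18, 2 without 2i RB18 and 0 without any of the other 4 libraries.

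The other 5 members were lower in 2i at an unadjusted p under 0.05 without being called. miR-181a-1-3p differed by -2.95 ± 0.72 (edgeR adjusted p = 0.0107), miR-181b-5p by -1.72 ± 0.47 (adjusted p = 0.0176), miR-181c-3p by -1.53 ± 0.41 (adjusted p = 0.0164) and miR-181d-5p by -1.35 ± 0.35 (adjusted p = 0.0150). miR-181c-5p showed the smallest difference, -0.77 ± 0.31, with an edgeR adjusted p of 0.0735. Leaving miR-181a-1-3p aside, all 5 members were below 0.05 unadjusted, and 29.1% of all tested miRNAs were lower in 2i by that measure. The 2i libraries lay below the serum libraries for these 5 members, where 38.5% of tested miRNAs did so, and their median log2 fold change was -1.53 against -0.03 over all tested miRNAs. The summed counts of miR-181a-1-3p were 35 in serum and 6 in 2i, a ratio of 8.09 with a counting interval of 3.37 to 23.5. The comparisons of 2i and R2i use the same serum libraries, so their values for a member are not independent.

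With 2i and R2i averaged as the ground state, 3 of the 5 members other than miR-181a-1-3p were lower than in serum and called, where 37.0% of all tested miRNAs were called in either direction. miR-181d-5p differed by -1.99 ± 0.29 (edgeR, adjusted p = 0.000739), miR-181c-3p by -2.15 ± 0.34 (adjusted p = 0.00107) and miR-181c-5p by -1.52 ± 0.26 (adjusted p = 0.00173). miR-181a-1-3p was also called, at -2.48 ± 0.57 (edgeR adjusted p = 0.00727), but it entered the test through its serum libraries alone and is left out of the count. miR-181a-5p differed by -1.17 ± 0.30 (edgeR adjusted p = 0.0125) and miR-181b-5p by -1.25 ± 0.39 (adjusted p = 0.0276), neither called. The median over these 5 members was -1.52, against -0.02 over all tested miRNAs.

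The ground-state calls of the 3 chromosome 8 members held under all 13 other settings, and without serum RB20 the difference of miR-181c-3p was -1.48. The call of miR-181a-1-3p rested on few reads and was lost with DESeq2 and with limma, and on leaving out serum RB20 (-1.68, edgeR adjusted p = 0.103), 2i RB18 (adjusted p = 0.0183), 2i RB20 (0.0273), R2i RB18 (0.0182) or R2i RB20 (0.0369). Without 2i RB18, miR-181a-5p and miR-181b-5p were called with edgeR adjusted p of 0.00106 and 0.00108. Both were also called without the filter on low counts (edgeR adjusted p = 0.000107 and 9.96e-05), and miR-181a-5p with DESeq2 (adjusted p = 0.0013) and without the 5 most abundant miRNAs (adjusted p = 0.00934). With miR-181a-1-3p included, the number of called members ranged from 3 to 5 over the libraries left out.

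**Figure D2:**
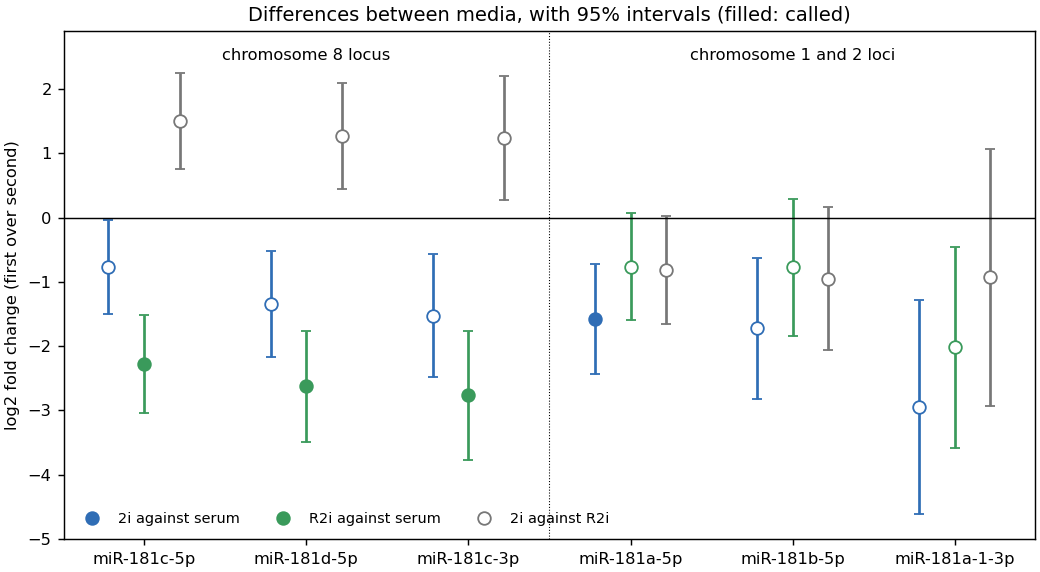
Log2 fold change of each member between media, first medium over second, with 95% intervals from the edgeR fit over 6 libraries. Filled points were called (adjusted p under 0.01 and more than 2-fold) and open points were not. Green points (R2i against serum) are filled for the 3 chromosome 8 members, and grey points (2i against R2i) lie above 0 on the left, up to 1.502, and below 0 on the right.

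Between the ground-state media no member was called. The chromosome 8 members had higher levels in 2i than in R2i: miR-181c-5p by 1.502 ± 0.32 on the log2 scale (95% interval 0.76 to 2.25), miR-181d-5p by 1.28 ± 0.35 (0.45 to 2.10) and miR-181c-3p by 1.24 ± 0.42 (0.27 to 2.20). Their edgeR adjusted p over 571 miRNAs were 0.0714, 0.160 and 0.185, where 0.35% of all tested miRNAs were called. At an unadjusted p under 0.05 these 3 members were higher in 2i, as were 7.53% of all tested miRNAs. By edgeR adjusted p miR-181c-5p stood at place 4 of 571, a place shared with other miRNAs of equal adjusted p, among them miR-142a-5p and miR-146a-5p. With DESeq2, miR-181c-5p and miR-181d-5p were called, and without the filter on low counts all 3 were, settings that called 17 of 571 and 25 of 1233 miRNAs in all, against 2 of 571 here.

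The members from chromosomes 1 and 2 had values below 0 with intervals that include 0. miR-181a-5p differed by -0.81 (95% interval -1.65 to 0.03, edgeR adjusted p = 0.286), miR-181b-5p by -0.95 (-2.06 to 0.17, adjusted p = 0.336) and miR-181a-1-3p by -0.93 (-2.93 to 1.07, adjusted p = 0.621). None of the 3 passed at an unadjusted p under 0.05. The 2i and R2i libraries did not overlap for the 3 chromosome 8 members, with 2i higher, nor for miR-181a-5p and miR-181b-5p, with 2i lower, where 29.9% of tested miRNAs were separated with 2i higher and 27.1% with 2i lower.

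Ratios within a library need no scaling between libraries. miR-181c-5p counts were 33.5 and 45.9 times those of miR-181a-5p in serum, 48.2 and 116.2 times under 2i and 13.5 and 14.9 times under R2i. miR-181d-5p counts were 35.8 and 49.3 times those of miR-181b-5p in serum, 35.6 and 112.0 times under 2i and 8.76 and 16.3 times under R2i. Both ratios were lowest in R2i, below all 4 other libraries, and the values of 2i RB20 stood far above the rest. With 2 libraries against 2, no exact two-sided permutation test can give a p below 0.333, so no test was made of these ratios.

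**Figure D3:**
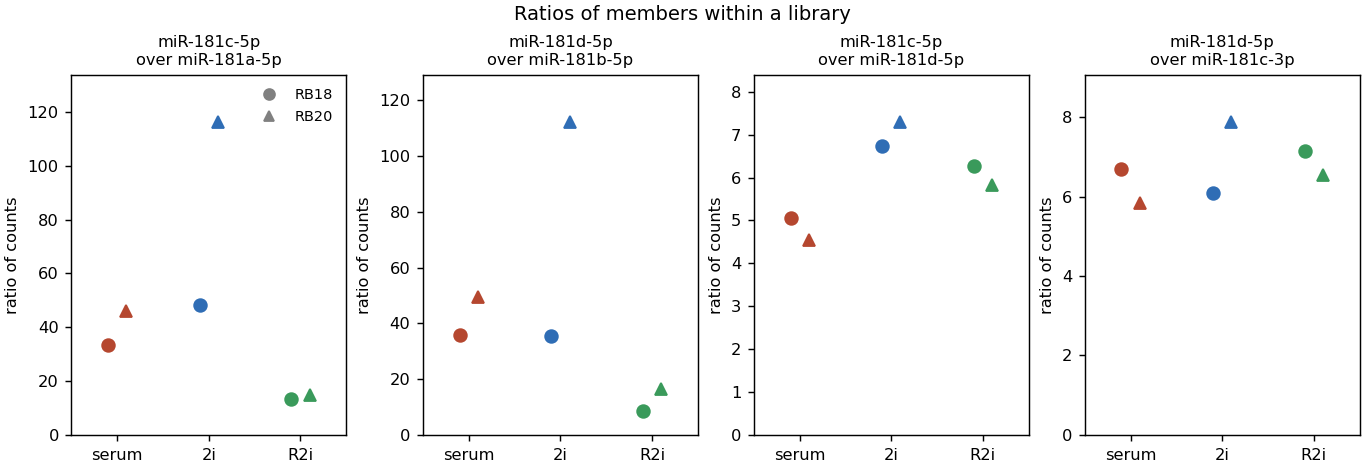
Ratios of member counts within each library, on linear axes from 0, with circles for RB18 and triangles for RB20. In the 2 panels on the left, chromosome 8 members are divided by their near-identical relatives from chromosomes 1 and 2, and R2i lies lowest (13.5 and 14.9 for miR-181c-5p over miR-181a-5p). In the 2 panels on the right, members of chromosome 8 are divided by each other and vary less.

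Of the counts of the 4 members with the shared seed, the chromosome 8 members took 97.1% and 97.9% in serum, 97.9% and 99.1% under 2i and 92.6% and 93.8% under R2i. miR-181a-5p supplied 2.42% and 1.75% in serum, 1.77% and 0.751% under 2i and 5.90% and 5.39% under R2i. Among counted reads, the miR-181 seed thus came mostly from Mir181c and Mir181d in every library. The counted share from chromosomes 1 and 2 was highest in R2i. How reads that match more than 1 place were counted is not known, so the shares of the loci in the cells may differ. The 95% Wilson intervals of the chromosome 8 share, from 91.8% to 93.4% in R2i RB18 and from 96.9% to 97.3% in serum RB18, did not overlap. They cover counting error only, and the interval of serum RB20, from 97.8% to 98.0%, did not overlap that of serum RB18 either.

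Within the chromosome 8 locus the proportions varied less. miR-181d-5p counts were between 5.84 and 7.87 times those of miR-181c-3p, with a mean of 6.70 ± 0.735 (SD, n = 6). The media overlapped in this ratio. miR-181c-5p counts were 5.05 and 4.55 times those of miR-181d-5p in serum, 6.73 and 7.29 times under 2i and 6.26 and 5.83 times under R2i, so that both serum values lay below the other 4. miR-181a-5p counts were between 4.05 and 7.03 times those of miR-181b-5p, and the media overlapped.

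The arms of a hairpin are cut from the same precursor, and usually only the dominant arm is kept. For Mir181c the 5p arm took 97.1% and 96.4% of the counts of both arms in serum, 97.6% and 98.3% under 2i and 97.8% and 97.4% under R2i. Serum was lowest, with a mean of 96.8% ± 0.538 (SD, n = 2) against 97.8% ± 0.362 (n = 4) in the ground state. The difference of 1.04 percentage points gave an exact two-sided permutation p of 0.0667, the smallest that the 15 splits of 4 and 2 libraries allow. It ranged from 0.660 to 1.42 points on leaving out each library.

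Of the other arms of miR-181 genes, miR-181a-2-3p from chromosome 2 was tested. It had 17 counts in RB18 and 32 in RB20 in serum medium, 6 and 7 under 2i and 4 and 9 under R2i, so its serum libraries were highest. The differences were -2.33 ± 0.52 in 2i (edgeR adjusted p = 0.00689, called), -2.13 ± 0.53 in R2i (adjusted p = 0.0132, not called) and -2.23 ± 0.43 in the ground state (adjusted p = 0.00296, called). Between 2i and R2i it differed by -0.20 (95% interval -1.64 to 1.23, adjusted p = 0.920). Like miR-181a-1-3p, it passed the filter through its serum libraries alone, which favours miRNAs that are higher there. The remaining arms were too rare to test: miR-181d-3p had at most 5 counts in a library, miR-181b-2-3p at most 2 and miR-181b-1-3p at most 1.

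The levels also differed between the lines. In serum all 6 members were higher in RB20, by 0.39 to 1.303 on the log2 scale with a median of 0.92, where 61.3% of all tested miRNAs were higher in RB20 with a median of 0.13. In 2i, 3 of 6 were higher in RB20, and miR-181a-5p and miR-181b-5p differed there by -1.03 and -1.49 on the log2 scale. In R2i, 4 of 6 were higher in RB20, within -0.45 to 0.57. The difference between 2i and serum was therefore larger in RB20 for all members, for example -2.35 against -0.94 for miR-181a-5p and -1.02 against -0.41 for miR-181c-5p. With 1 library per line and medium, the difference between lines was not tested.

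Beyond the family, Mir23a, Mir27a and Mir24-2 form a cluster on chromosome 8, 29556 to 29853 bases from Mir181c. Their mature miRNAs are known for roles in muscle, heart and immune cells. Of 8 rows from genes within 50000 bases of a miR-181 gene, 5 were tested, and 3 of them were called lower in 2i than in serum, 4 in R2i and 4 in the ground state, with none called between 2i and R2i. Over all tested miRNAs, 17.3% were called lower in 2i and 15.6% in R2i, 37.0% were called in the ground state in either direction and 0.35% between 2i and R2i. The medians were -1.45, -2.06 and -1.79 against serum and 0.53 between 2i and R2i. miR-27a-5p differed most, by -1.996 ± 0.39 in 2i (edgeR adjusted p = 0.00380) and by -2.78 ± 0.43 in R2i (adjusted p = 0.00126). miR-23a-3p measured 1052 and 578.0 TMM CPM in serum, 270.7 and 295.3 under 2i and 188.7 and 201.7 under R2i. The libraries of the 3 media did not overlap for miR-23a-3p, miR-24-2-5p or miR-24-3p, as for the miR-181 members of chromosome 8. The gap between serum and 2i was small for miR-24-3p (1920 against 1878 TMM CPM). For miR-27a-3p and miR-27a-5p the libraries of 2i and R2i overlapped. Of all tested miRNAs, 38.5% were separated with 2i below serum, 38.2% with R2i below serum and 29.9% with 2i above R2i. In serum miR-23a-3p, miR-24-2-5p, miR-24-3p and miR-27a-3p were higher in RB18, the last by little (1614 against 1541 TMM CPM). Of the 5 tested neighbours only miR-27a-5p was higher in RB20, whereas all miR-181 members were higher there. miR-23a-3p differed by -1.53 ± 0.32 in 2i (edgeR adjusted p = 0.00507) and by -2.06 ± 0.32 in R2i (adjusted p = 0.00132).

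miR-27a-3p differed by -1.42 ± 0.29 in 2i (edgeR adjusted p = 0.00418) and by -1.54 ± 0.29 in R2i (adjusted p = 0.00323), with little between these media. miR-24-2-5p differed by -1.45 ± 0.38 in 2i (edgeR adjusted p = 0.0158, not called) and by -2.34 ± 0.40 in R2i (adjusted p = 0.00202). miR-24-3p, named after its values were seen because it is the remaining tested neighbour, differed by -0.32 and -0.76 and was not called. Its row counts reads of 2 genes, only 1 of which lies near Mir181c.

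**Figure D4:**
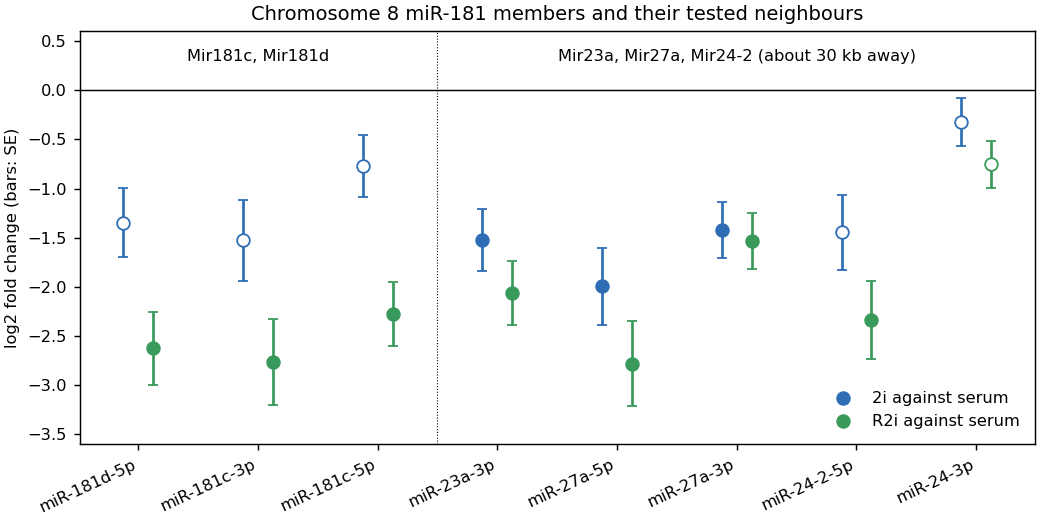
Log2 fold changes of the chromosome 8 miR-181 members and of the 5 tested miRNAs from the Mir23a, Mir27a and Mir24-2 genes, for 2i (blue) and R2i (green) against serum. Bars are standard errors and filled points were called. R2i lies below 2i for each miRNA, from -1.54 against -1.42 for miR-27a-3p to -2.27 against -0.77 for miR-181c-5p.

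The miR-125 arms were listed because miR-125 and miR-181 are known to repress Cbx7. Whether each arm does so was not examined. Of the 5 miR-125 arms, 4 were tested. They gave 0 calls in 2i, 2 lower in R2i, 0 between 2i and R2i and 2 lower in the ground state. Of all tested miRNAs, 15.6% were called lower in R2i. In either direction, 34.2% were called in 2i, 0.35% between 2i and R2i and 37.0% in the ground state. Unlike the rest of the list, miR-125a-5p and miR-125a-3p, the arms of 1 hairpin, were called. miR-125a-5p measured 2983 and 1499.6 TMM CPM in serum, 669.2 and 797.8 under 2i and 360.3 and 722.3 under R2i. Serum was highest and 2i and R2i overlapped. Against serum it differed by -2.05 ± 0.44 in R2i (edgeR adjusted p = 0.00624) and by -1.83 ± 0.35 in the ground state (adjusted p = 0.00296), and miR-125a-3p by -1.72 ± 0.36 (adjusted p = 0.00527) and -1.52 ± 0.29 (adjusted p = 0.00276). In serum miR-125a-5p was higher in RB18, whereas all miR-181 members were higher in RB20. The medians of the tested arms were -1.12 in 2i, -1.76 in R2i, 0.42 between 2i and R2i and -1.42 in the ground state.

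Among miRNAs typical of blood or endothelial cells, 8 of 10 were tested. In blood cells miR-181 is also abundant. In 2i 1 was called lower, in R2i 3, between 2i and R2i none, and in the ground state 2. The only one called higher against serum was miR-451a, left out of these counts for its passage of the filter, given below. The medians over the 8, miR-451a included, were -0.28 in 2i, -0.94 in R2i, -0.05 between 2i and R2i and -0.71 in the ground state. Of all tested miRNAs, 17.3% were called lower in 2i and 15.6% in R2i. In either direction, 34.2% were called for 2i, 30.6% for R2i and 37.0% for the ground state. Between 2i and R2i the share was 0.35%. miR-155-5p, induced on lymphocyte activation, differed by -1.64 ± 0.23 in 2i (edgeR adjusted p = 0.000576) and by -1.58 ± 0.23 in R2i (adjusted p = 0.000899). miR-146a-5p, a brake on NF-κB signalling, differed by -2.14 ± 0.28 in R2i (edgeR adjusted p = 0.000550). miR-142a-5p, expressed throughout the blood lineage, differed by -2.43 ± 0.54 in R2i (edgeR adjusted p = 0.00753) but by 0.33 in 2i (adjusted p = 0.628). miR-451a, the miRNA of red blood cells, was the miRNA called higher in 2i and R2i (edgeR adjusted p = 0.00520 and 0.00151). It had 0 and 3 counts in serum, at or under the limit of 3, against 26 and 27 counts for 2i and 22 and 66 for R2i, and passed the filter through these 4 libraries alone, so no fold is given.

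The miRNAs whose pattern lay closest to each member were found by the root-mean-square difference of log2 TMM CPM over the 6 libraries, after centring each miRNA on its own mean. miR-181d-5p and miR-181c-3p were closest to each other of all tested miRNAs (0.14), and miR-181d-5p was the closest to miR-181c-5p (0.23). miR-181b-5p was closest to miR-181a-5p (0.25). From miR-181a-5p, the near-identical miR-181c-5p was at 1.06, place 361 of the other tested miRNAs. Each chromosome 8 member was thus nearer to its neighbours than to the member that shares most of its sequence.

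Outside the family, miR-146a-5p was among the 3 nearest to miR-181c-5p (0.34) and to miR-181d-5p (0.40), miR-31-5p was near miR-181c-5p (0.31) and miR-21a-3p near miR-181c-3p (0.45). miR-31-5p measured 324.2 and 335.6 TMM CPM in serum, 188.1 and 212.8 under 2i and 80.6 and 112.4 under R2i, the serum, 2i, R2i order of the chromosome 8 members. For miR-181a-5p the nearest were miR-7b-5p and miR-205-5p (0.23 each), and for miR-181b-5p miR-7b-5p (0.29) and miR-3063-3p (0.29) followed miR-181a-5p. miR-7b-5p measured 31.2 and 49.1 TMM CPM in serum, 14.1 and 9.47 under 2i and 24.9 and 19.5 under R2i, with 2i lowest. For miR-181a-1-3p the nearest were miR-181a-2-3p (0.34), the same arm of the gene on chromosome 2, then miR-92a-2-5p (0.37) and miR-28a-3p (0.38). These distances describe 6 libraries that share media and depth and carry no test.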

How the data were processed

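Small RNA libraries of 6 ESC samples were analysed from 2 deposited tables. Per the labels' processing notes, the authors used FastQC 0.11.5, cutadapt 1.3, Bowtie 1.1.2, featureCounts 1.5 and the mm10 build, and they deposited a table of raw counts (whole numbers) with 1907 rows, 1 per mature miRNA. They also deposited log2 values, which equal log2(count / size factor + 1) with median-of-ratios factors.

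Counts were scaled by TMM and tested with edgeR 4.0.16 in R 4.3.3: filterByExpr (minimum count 10, minimum total 15), the quasi-likelihood test, 1 coefficient per medium over all 6 libraries, and calls where the Benjamini-Hochberg adjusted p was below 0.01 with over 2-fold change. Standard errors divide the log2 fold change by the root of the F statistic, and the biological coefficient of variation was 24.6%. With 2 libraries per medium, 1 from each line, p-values set a difference between media against the spread between libraries of a medium. That spread was estimated over all 6 libraries together and holds the difference between the lines. The script was tested on simulated data.

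Total counts of 1041858 to 3593356 set the precision, and Wilson intervals (95%) cover counting error only. Shares and distances were computed with Python 3.11.15, pandas 2.3.3, numpy 2.4.6 and scipy 1.17.1, with 0.5 added to TMM CPM before log2 for distances and differences within a line, and figures with matplotlib 3.10.9. Genes were placed by GENCODE M21 and sequences taken from RefSeq.

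The members and lists were chosen with earlier results of these data known. Named were all members, the other arms, up to 4 called miRNAs per list by ground-state change, and the 3 nearest patterns per member. Samples pair across media by cell line. The RB20 minus RB18 differences correlated over 571 miRNAs at 0.21 (serum and 2i), -0.13 (serum and R2i) and 0.22 (2i and R2i). Alternatives were DESeq2 1.42.0, library totals, 2 other filters, a block for the line, the deposited log2 values tested with limma 3.58.1, leaving out the 5 most abundant miRNAs or each library, and an adjusted p under 0.05.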

Additional observations from a re-analysis of the deposited data

How the results depend on the processing

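No member reversed its direction in any comparison under any alternative run. Of 144 values of a member with a library left out, 127 kept their side of the threshold, 10 lost a call and 7 gained one. Of 164 values under the other alternatives the numbers were 139, 3 and 22. For R2i against serum 3 members were called under each alternative at the same limits.

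For 2i against serum the count of called members, 1, became 4 with DESeq2, 4 with library totals, 4 without the 5 most abundant miRNAs, 5 without a filter on low counts and 5 at an adjusted p under 0.05 with no fold limit. It became 0 in the paired analysis, which takes the line as a replicate block, and ranged from 0 to 4 with a library left out. For 2i against R2i the count of 0 became 2 with DESeq2 and 3 without the filter. The cause was not tested. The block changed no other call of a member.

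Requiring 10 counts in every library left miR-181a-1-3p untested. Its few counts limit every statement about it, as they do for the other rare arms, and fits without a library treat the lone library of a medium as if it varied like the others.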
